A study of Sus scrofa domesticus with 6 samples.

Results

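Collagens are triple-helical proteins of the extracellular matrix, built from 3 chains that may come from the same gene or from several. Fibrillar collagens such as types I, III and V form the cables of bone, tendon and fibrous tissue. Type IV forms the sheet-like network of basement membranes under vessels, muscle fibres and nerves, and the FACITs (fibril-associated collagens with interrupted triple helices) decorate the surface of fibrils. In the mandibular condyle, the part of the jaw that forms the joint with the skull, cartilage with its own collagens is replaced by bone rich in type I, while fibrous tissue covers the joint surface.

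The genes described here are the collagens outside the cartilage set. They were chosen by name: every row of the deposited table whose gene name has the form of a collagen chain, except COL2A1, COL9A1, COL9A2, COL10A1, COL11A1 and COL11A2. Of 35 collagen names in a table of 25322 gene rows, 29 remained, and each name had 1 row. By structure they comprise 6 fibrillar, 5 basement membrane and 6 FACIT genes, 4 genes of the beaded filament collagen VI, 2 of the short-chain network collagen VIII, and 6 others. COL1A1 and COL9A3 were not analysed here. In the pathway labels of the deposited table, 13 of the 29 carry protein digestion and absorption and 7 carry ECM-receptor interaction.

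Condyles of miniature pig embryos were compared at an age of 85 days and 45 days, with 3 RNA libraries per age, and no label other than age sets the groups apart. The labels call the tissue cartilage holding chondrocytes and osteocytes, and they do not say whether the libraries of an age come from separate animals. The p-values therefore measure the spread between these libraries, which may be technical. Total counts ran from 12546729 to 16033822 at day 85 and from 14221365 to 16559616 at day 45, so 1 read is worth less than 0.1 CPM (counts per 1000000).

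Each fold change sets day 85 over day 45, and n is 3 libraries at either age. Levels between libraries are normalised CPM, given for replicates 1, 2 and 3 in that order with mean ± SD, and levels between genes are the deposited FPKM, which is scaled per length. A gene was called where edgeR's quasi-likelihood F test gave an adjusted p (Benjamini-Hochberg, over 15022 tested genes) under 0.05. Of the 29 collagens, 27 passed the filter on low counts. Type IV chain COL4A4 and the FACIT COL20A1 did not.

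Of the 27 tested collagens, COL5A3 was called higher and COL27A1 lower at day 85. That is 3.70% in each direction, against 3.90% of all tested genes called higher and 2.66% called lower, so the share of called collagens lay near that of the table. In 6 collagens (22.2%) every day 85 library lay above every day 45 library, which held for 17.4% of all tested genes. In 3 collagens (11.1%) every day 85 library lay below, against 17.6% of all. At an unadjusted p under 0.05, 7 were higher (25.9%, against 15.8% of all) and 3 lower (11.1%, against 13.3% of all). The median log2 fold change of the 27 was -0.03, beside 0.02 over all tested genes.

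The libraries within an age were not alike, and this touches most collagens. Among the 22 collagens with at least 600 counts over all libraries, 14 were highest in replicate 2 of the day 85 libraries and 17 were lowest in replicate 1. At day 45, 13 of the 22 were highest in replicate 3. Day 85 replicate 2 also differed in markers of other tissues: 12 matched skeletal muscle markers of 14 summed to 38467, 2858 and 33799 CPM in the day 85 libraries, against 8335, 4179 and 9327 CPM at day 45. The 7 osteoclast markers summed to 1862, 13344 and 2285 CPM at day 85, against 284, 1285 and 366 CPM at day 45. Without day 85 replicate 2, edgeR called 4 collagens higher and 2 lower, 22.2% of the 27, against 22.3% of all genes then tested. Leaving out any other library left 0 collagens called in either direction, with 0 to 93 genes called higher and 0 to 25 lower over the whole table.

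The 4 highest collagens by FPKM were the fibrillar genes COL1A2, COL3A1, COL5A1 and COL5A2. COL1A2, the second chain of type I collagen and the main collagen chain of bone measured here, had 8099, 11838 and 9156 FPKM in the day 85 libraries, against 7427, 8023 and 6120 FPKM at day 45. In FPKM the ages were separate by a narrow margin, whereas in normalised CPM replicate 2 of day 45, at 42227, exceeded replicate 1 of day 85, at 39985. In CPM it averaged 50453 ± 12570 at day 85 and 36513 ± 6805 at day 45, and the log2 fold change of 0.47 (SE 0.26) did not pass (edgeR adjusted p = 0.276). COL3A1, the collagen of loose connective tissue and vessel walls, came next with 3199, 4456 and 5504 FPKM at day 85, against 5266, 4896 and 5748 FPKM at day 45. Its ages overlapped, and its log2 fold change was -0.23 (SE 0.25, edgeR adjusted p = 0.562). The 29 collagens together took 7.07%, 10.2% and 9.30% of all counts at day 85, against 7.99%, 8.38% and 8.03% at day 45, and the fibrillar genes made up most of that. COL1A2 and COL3A1 alone held 7.03% ± 1.27 of the counts at day 85 and 6.19% ± 0.295 at day 45 (SD, n = 3 each).

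**Figure D1:**
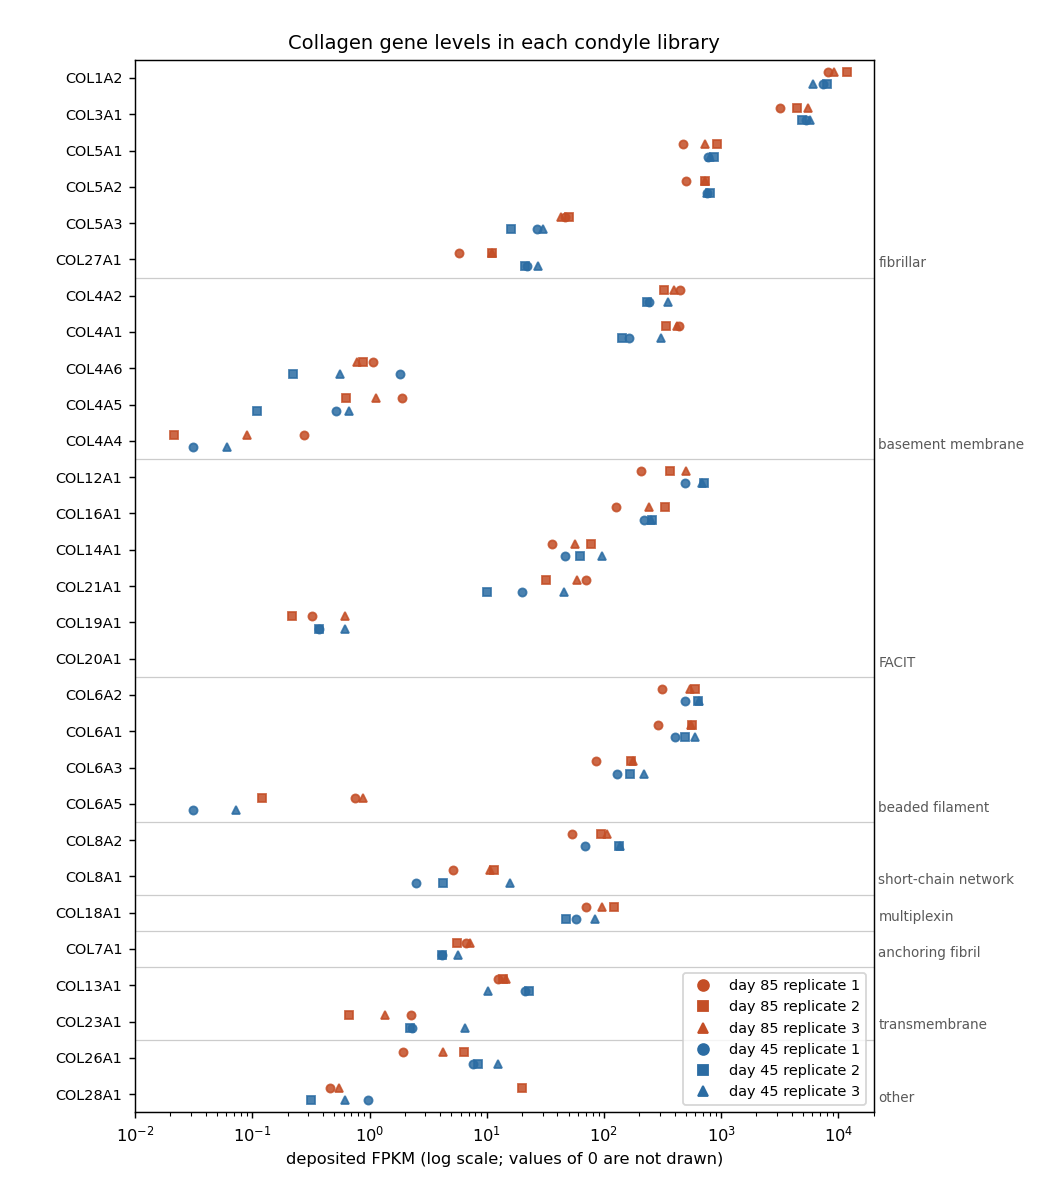
Deposited FPKM of the 29 collagens on a log axis, by structural class, with day 85 libraries above day 45 libraries in each row. COL1A2 and COL3A1 have 3199 FPKM or more in every library, whereas COL20A1 is at 0 throughout and has no points.

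Ratios of 3 abundant chains to COL1A2 did not overlap between the ages, whereas the ratio of COL4A1 to COL1A2 did. The FPKM of COL3A1 divided by that of COL1A2 in the same library was 0.395, 0.376 and 0.601 at day 85, against 0.709, 0.610 and 0.939 at day 45. Every day 85 ratio lay below every day 45 ratio, although replicate 3 of day 85 came close to replicate 2 of day 45. COL5A1, which with COL5A2 makes the type V collagen that starts fibrils and limits their width, had a ratio to COL1A2 of 0.0716 ± 0.0119 at day 85 and 0.115 ± 0.0151 at day 45, again without overlap. COL12A1, a FACIT of dense connective tissue, had 0.0373 ± 0.0156 at day 85 and 0.0889 ± 0.0228 at day 45 (SD, n = 3 each). These ratios do not depend on library scaling, and no test was run on them. All share COL1A2, whose own FPKM separated the ages by a narrow margin, so they are not independent of each other. How many other genes would give a ratio to COL1A2 without overlap was not counted.

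The chains of common type V collagen gave similar values. COL5A1 had 469, 918 and 726 FPKM at day 85, against 769, 869 and 807 FPKM at day 45. COL5A2 had 505, 725 and 730 FPKM at day 85, against 751, 803 and 759 FPKM at day 45. In both, day 85 replicate 1 was the lowest of the 6 libraries. Their log2 fold changes were -0.16 (SE 0.29) and -0.20 (SE 0.21), with edgeR adjusted p = 0.732 and 0.564. The ratio of COL5A1 to COL5A2 was 1.06 ± 0.178 at day 85 and 1.06 ± 0.0291 at day 45.

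COL5A3, the least common chain of type V collagen, was the collagen that rose. It had 242, 288 and 233 CPM in the day 85 libraries, against 145, 89.4 and 149 CPM at day 45. The ages did not overlap, and the lowest day 85 library stood well above the highest of day 45. COL5A3 averaged 254 ± 29.8 CPM at day 85 and 128 ± 33.2 CPM at day 45, a 1.99-fold rise (log2 fold change 0.99, SE 0.22, edgeR adjusted p = 0.0458). Its FPKM relative to COL5A1 was 0.0997, 0.0552 and 0.0597 at day 85, against 0.0349, 0.0187 and 0.0372 at day 45. The call held without day 85 replicate 2 (log2 fold change 0.89, adjusted p = 0.0355) and was lost without each of the other 5 libraries, where edgeR's adjusted p ran from 0.0883 to 0.156 and the log2 fold change from 0.79 to 1.11. It was also lost with total-count scaling, with upper-quartile scaling and in limma-trend fits of the FPKM.

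COL27A1, a fibrillar collagen known from developing cartilage in mice, was the collagen that fell. It had 31.3, 66.8 and 62.6 CPM in the day 85 libraries, against 125, 124 and 144 CPM at day 45. Day 85 replicate 1 was the lowest, and no day 85 library reached the day 45 range. The mean fell to 53.6 ± 19.4 CPM at day 85, against 131 ± 11.2 CPM at day 45, which is 2.44-fold lower (log2 fold change -1.28, SE 0.28, edgeR adjusted p = 0.0473). Of 11 chondrocyte markers 10 matched, 5 of them collagens of the cartilage set, and they summed to 1923, 6759 and 3646 CPM at day 85, against 19092, 18063 and 15233 CPM at day 45, and none of them was at 0. Within day 85 the lowest library was the same for COL27A1 and for this sum. Within day 45 COL27A1 was highest in replicate 3, where the sum was lowest. The part of cartilage content in the fall of COL27A1 was not tested, and in bulk tissue fewer cells of a type and less RNA per cell cannot be told apart.

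The COL27A1 row spans 378250 bases on chromosome 1, from 285795979 to 286174228 by the authors' coordinates (build: not given in the sources used here). Another 7 rows of the table lie within or across this span, among them AKNA and a row without a gene name, ENSSSCG00000023475, with 3531 counts in all. That unnamed row had 182, 439 and 332 counts at day 85, against 976, 777 and 825 at day 45. Reads in shared stretches could be counted for more than 1 of these rows, so the level of COL27A1 is uncertain. Its call was lost without each library other than day 85 replicate 2, with edgeR adjusted p from 0.0557 to 0.161 and a log2 fold change that came closest to 0 at -1.04. Without day 85 replicate 2 the log2 fold change was -1.47 (adjusted p = 0.0201).

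**Figure D2:**
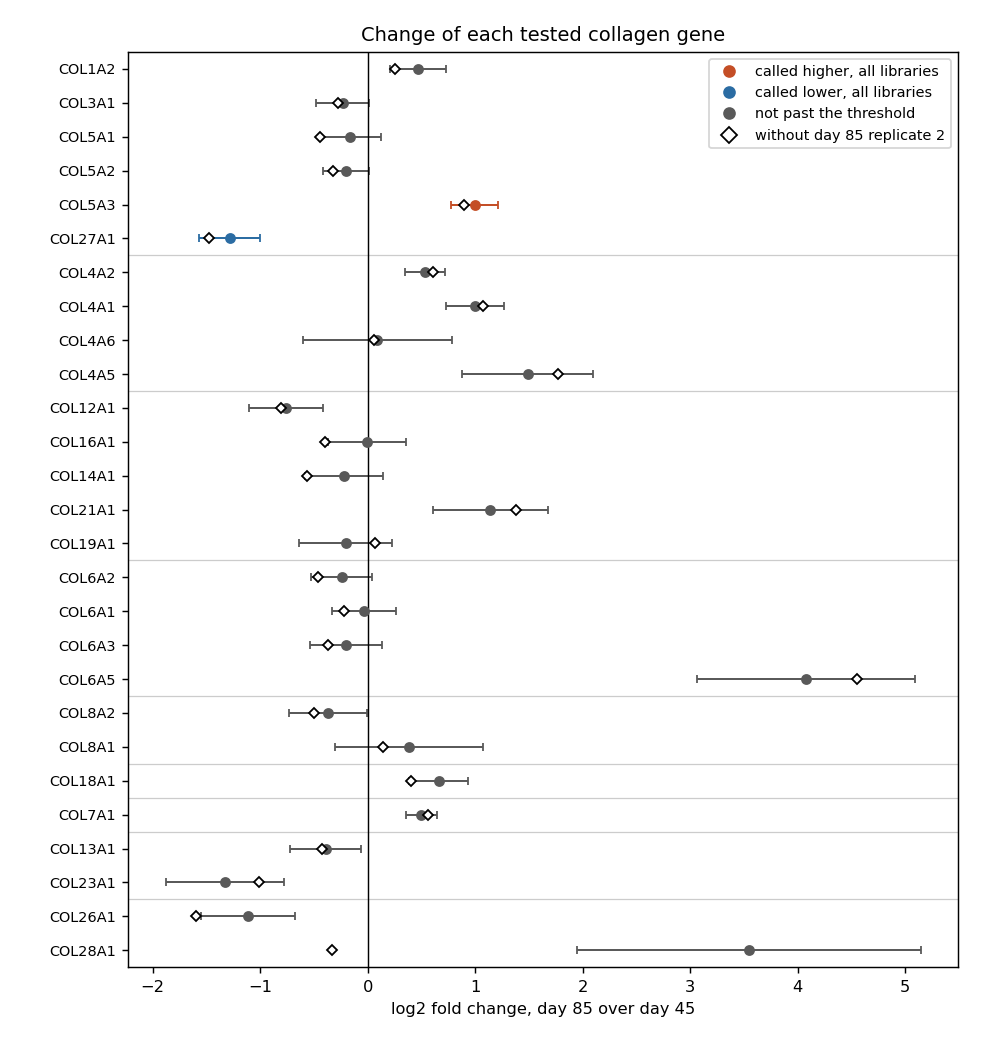
Log2 fold change of each tested collagen, day 85 over day 45, with bars of 1 SE and lines between the classes, and open diamonds for the fit without day 85 replicate 2. COL5A3 at 0.99 and COL27A1 at -1.28 are the called genes. COL28A1 moves most between the fits, with 3.54 for all libraries and -0.33 without that library.

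Among the basement membrane collagens no gene was called with all libraries, while 3 of 4 tested were higher at an unadjusted p under 0.05, against 15.8% of all tested genes, a comparison over few genes. COL4A1, which with COL4A2 makes the type IV network found in nearly all basement membranes, had 2071, 1748 and 2046 CPM at day 85, against 816, 725 and 1393 CPM at day 45. All day 85 libraries were higher, and day 45 replicate 3 stood apart from its age. COL4A1 averaged 1955 ± 180 CPM at day 85 and 978 ± 362 CPM at day 45. Its log2 fold change of 1.00 (SE 0.27) missed the threshold (edgeR adjusted p = 0.0701). It passed without day 85 replicate 2 (log2 fold change 1.07, adjusted p = 0.0433) and did not pass without any other library, where edgeR's adjusted p ran from 0.0533 to 0.245. COL4A2 had 2497, 2043 and 2343 CPM at day 85, against 1425, 1398 and 1925 CPM at day 45. The ages were again separate, by a narrow margin between day 85 replicate 2 and day 45 replicate 3 (log2 fold change 0.54, SE 0.19, edgeR adjusted p = 0.122).

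COL4A1 and COL4A2 lie next to each other on chromosome 11 of the deposited table, with a gap of 181.2 kb and no other row between them. They are known in mammals as neighbours that share a promoter region. The gap between these rows does not show this, so the ends or positions of the rows are uncertain. The FPKM ratio of COL4A1 to COL4A2 was higher in every day 85 library. It was 0.991, 1.02 and 1.04 at day 85, against 0.684, 0.620 and 0.864 at day 45. How near it lies to 1 depends on the length behind each row's FPKM, 4878 bases for COL4A1 and 5827 for COL4A2. Basement membrane collagens as a class took 0.472%, 0.355% and 0.436% of the counts at day 85, against 0.222%, 0.205% and 0.357% at day 45.

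The less common type IV chains had low counts. COL4A5 had 30, 13 and 22 counts at day 85, against 11, 2 and 12 at day 45, and COL4A6 had 84, 89 and 75 counts at day 85, against 188, 20 and 50 at day 45. The length behind the FPKM is 1276 bases for COL4A5 and 6281 for COL4A6, so these counts do not compare their levels. Part of COL4A5 may be missing from its row. Mean FPKM at day 85 was 1.21 for COL4A5 and 0.91 for COL4A6, against 0.43 and 0.86 at day 45. COL4A5 did not pass (log2 fold change 1.49, SE 0.61, edgeR adjusted p = 0.162), and COL4A6 had a log2 fold change of 0.09 (SE 0.69, adjusted p = 0.947), which was 1.27 without day 45 replicate 1. COL4A4, a chain of kidney and inner ear basement membranes, had 20, 2 and 8 counts at day 85, against 3, 0 and 5 at day 45, and was not tested.

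COL18A1 and COL7A1 also belong to basement membrane zones. COL18A1, whose C-terminal fragment is endostatin, had 74.8, 144 and 106 CPM at day 85, against 65.1, 54.4 and 85.8 CPM at day 45. The ages overlapped through day 85 replicate 1 (log2 fold change 0.66, SE 0.27, edgeR adjusted p = 0.167). COL7A1, the collagen of anchoring fibrils, had 58.4, 54.6 and 66.2 CPM at day 85, against 38.7, 39.5 and 48.7 CPM at day 45. Its ages did not overlap and its libraries lay close together, but the log2 fold change of 0.50 (SE 0.14) missed the threshold with all libraries (edgeR adjusted p = 0.0798). It passed without day 85 replicate 2 (0.56, adjusted p = 0.0382). The 8 surface epithelium markers, of which 6 passed the filter on low counts, had low sums. These were 6.34, 33.7 and 12.6 CPM at day 85, against 33.7, 11.0 and 16.7 CPM at day 45. The part of epithelium content in the values of COL7A1 was not tested.

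Within each age, sums of markers of vessel lining, vessel wall and muscle were ordered over the libraries as COL4A1 and COL4A2 were. Of 11 endothelial markers 10 matched, and they summed to 1606, 1052 and 1195 CPM at day 85, against 489.6, 400.2 and 652 CPM at day 45, and none was at 0. The sum, COL4A1 and COL4A2 shared their highest and lowest library within day 85 (replicates 1 and 2) and within day 45 (replicates 3 and 2). Within each age the same order held for the skeletal muscle sum given above and for the sum of 9 mural and smooth muscle markers. The latter had 1787, 1417 and 1685 CPM at day 85, against 1377, 1190.2 and 1593 CPM at day 45. Between the ages both sums overlapped, with day 85 replicate 2 at 2858 CPM for skeletal muscle and 1417 CPM for mural markers. COL4A1 and COL4A2 in that library lay above every day 45 library. Of the 9 mural markers 8 had a log2 fold change above 0, with 2 called higher, whereas CSPG4 was called lower. CSPG4 had 129.3, 172.3 and 244.7 CPM at day 85, against 354.9, 369.1 and 389.1 CPM at day 45. It thus narrowed the difference between the ages in the mural sum. The parts of vessel and muscle content in the values of COL4A1 and COL4A2 were not tested. COL15A1, a relative of COL18A1 at vessel and muscle basement membranes, carries only an ID in the deposited table and so is not among the 29. Its row had 68.0, 48.7 and 65.7 CPM at day 85, against 14.5, 12.6 and 25.0 CPM at day 45, a 3.50-fold rise (log2 fold change 1.81, SE 0.29, edgeR adjusted p = 0.0267). The call held without day 85 replicate 2 (adjusted p = 0.00891) and was lost without each of the other libraries, where edgeR's adjusted p ran from 0.051 to 0.139.

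**Figure D3:**
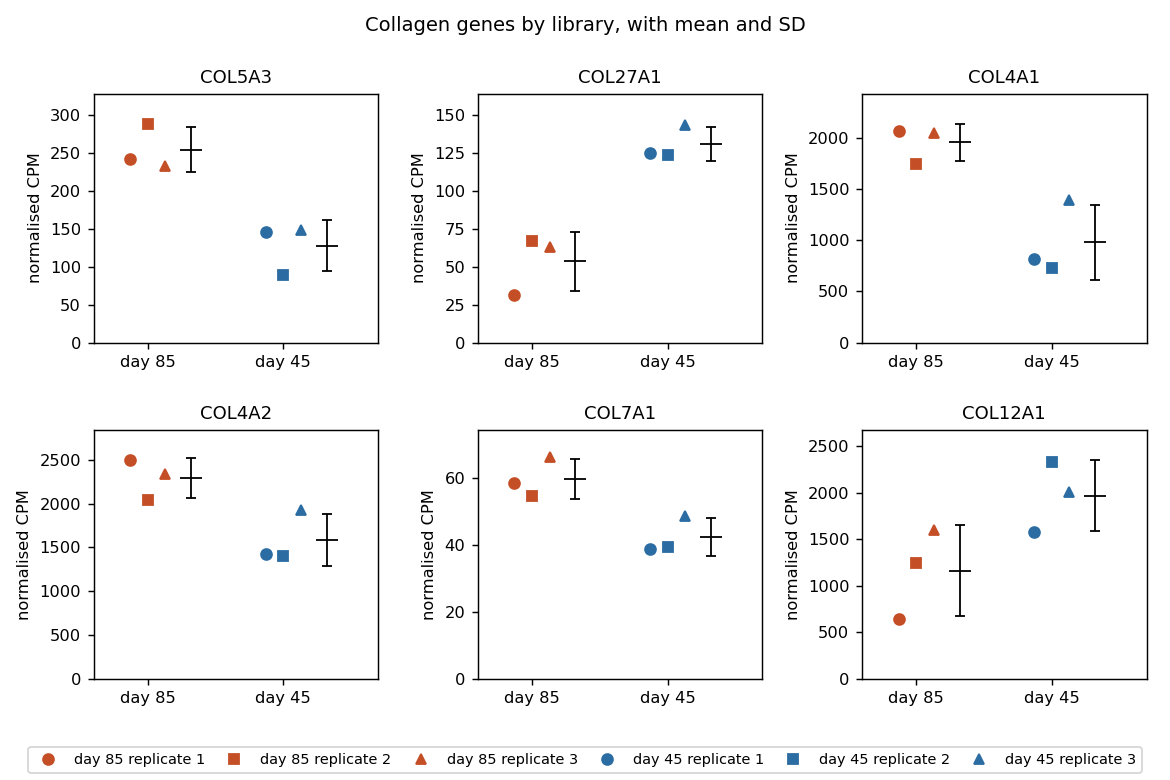
Normalised CPM of 6 collagens in each library, with mean and SD beside the points and axes from 0. Day 85 libraries lie above all day 45 libraries for COL5A3, COL4A1, COL4A2 and COL7A1 and below them for COL27A1, while COL12A1 overlaps through day 85 replicate 3 at 1602 CPM and day 45 replicate 1 at 1571 CPM.

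None of the FACIT collagens was called in edgeR, and 0 of the 5 tested had an unadjusted p under 0.05. COL12A1 had 639, 1242 and 1602 CPM at day 85, against 1571, 2326 and 2008 CPM at day 45. Replicate 1 of day 85 was far below the rest, and replicate 3 of day 85 just entered the day 45 range (log2 fold change -0.76, SE 0.34, edgeR adjusted p = 0.194). The row of COX7A2, with 5029 counts in all, lies within the span of COL12A1, so some reads could count for either. COL16A1, which sits in fibrillar and fibrillin networks, had 618, 1807 and 1234 CPM at day 85, against 1138, 1334 and 1193 CPM at day 45. Day 85 held both its lowest and its highest library (log2 fold change -0.003, SE 0.36). COL14A1, a FACIT of tendon and skin known in mice to regulate fibril growth, averaged 392 ± 162 CPM at day 85 and 458 ± 146 CPM at day 45 (edgeR adjusted p = 0.716).

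COL21A1, a FACIT found in vessel walls, had 112.7, 56.86 and 99.96 CPM at day 85, against 33.6, 17.3 and 71.2 CPM at day 45. Among the 5 tested FACITs it alone had a positive log2 fold change (1.14, SE 0.54, edgeR adjusted p = 0.220). Its ages overlapped through day 85 replicate 2 and day 45 replicate 3. Without day 45 replicate 3 the log2 fold change was 1.81 (edgeR adjusted p = 0.0983). The row of the FACIT COL22A1 carries only an ID and is not among the 29. It had 61.6, 91.7 and 56.6 CPM at day 85, against 44.4, 54.2 and 27.7 CPM at day 45. All its day 85 libraries were higher, and it was not called (log2 fold change 0.73, SE 0.29, edgeR adjusted p = 0.1555). COL19A1, a rare collagen known from muscle and nervous tissue, had 13 to 35 counts at day 85 and 20 to 33 at day 45 (edgeR adjusted p = 0.782). COL20A1 had 0 counts in all 6 libraries, so its level was below 0.232 CPM at day 85 and below 0.216 CPM at day 45 in the library with the highest floor, a floor being 3 counts. The row named COL20A1 lies 58.7 kb from COL6A5 on chromosome 13 of the deposited table, whereas RefSeq's Sscrofa11.1 annotation puts COL20A1 on another chromosome than COL6A5, so the row's name is uncertain.

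Collagen VI, which forms beaded filaments around cells in muscle, cartilage and fibrous tissue, was not called in any of its 3 main chains. COL6A2 had 316, 596 and 538 FPKM at day 85, against 488, 639 and 648 FPKM at day 45. COL6A1 had 288, 561 and 557 FPKM at day 85, against 406, 492 and 593 FPKM at day 45, and COL6A3 had 85.0, 170 and 178 FPKM at day 85, against 129, 167 and 221 FPKM at day 45. In each, day 85 replicate 1 was the lowest of the 6 libraries. Their log2 fold changes were -0.24, -0.03 and -0.20 with SEs of 0.28, 0.30 and 0.33 (edgeR adjusted p = 0.602, 0.957 and 0.722). COL6A1 stands on an unplaced scaffold in the deposited table, and the factor that turns its counts into FPKM is 1461 bases, against 3109 for COL6A2 and 9817 for COL6A3. Part of COL6A1 may therefore be missing from its row, so levels between these chains compare only what was counted.

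COL6A5, a rare further chain of collagen VI, had 74, 15 and 105 counts at day 85, against 4, 0 and 8 counts at day 45. Every day 85 library was higher, by the least in replicate 2. The fitted log2 fold change of 4.08 (SE 1.02) rests on 12 counts at day 45 and did not pass (edgeR adjusted p = 0.0636). Without day 85 replicate 2 it passed at 4.55 (adjusted p = 0.00639), and without each of the other libraries edgeR's adjusted p ran from 0.112 to 0.219.

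Collagen VIII, a short-chain collagen of vessel walls and of the membrane behind the cornea, was carried mainly by COL8A2. That gene had 109, 216 and 227 CPM at day 85, against 148, 292 and 272 CPM at day 45, with overlapping ages (log2 fold change -0.37, SE 0.36, edgeR adjusted p = 0.532). COL8A1 had 12.52, 30.5 and 26.7 CPM at day 85, against 6.25, 10.9 and 36.2 CPM at day 45. Its log2 fold change of 0.39 (SE 0.69) did not pass (edgeR adjusted p = 0.740), and it was 1.44 without day 45 replicate 3. The FPKM of COL8A2 relative to COL8A1 was 10.2, 8.31 and 9.98 at day 85, against 27.7, 31.5 and 8.80 at day 45. Day 45 replicate 3 thus had a ratio like the day 85 libraries.

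**Figure D4:**
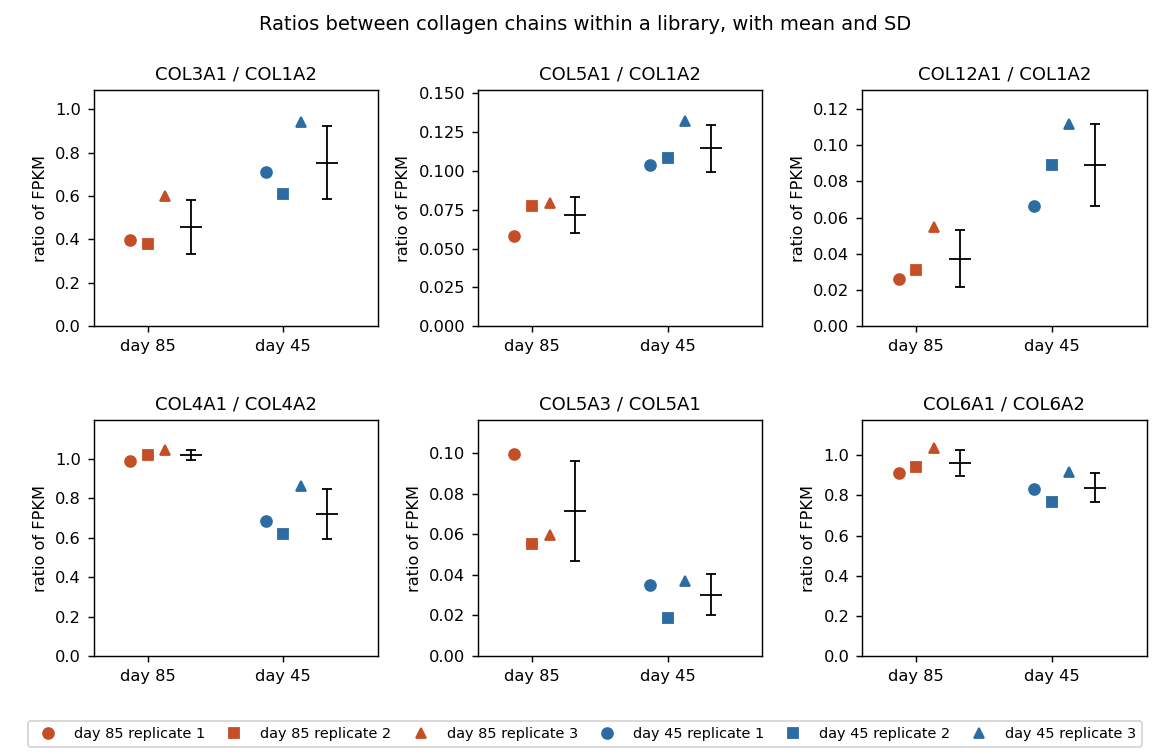
Ratio of the deposited FPKM of 2 collagen chains within each library, with mean and SD and axes from 0. COL3A1, COL5A1 and COL12A1 relative to COL1A2 are lower in every day 85 library, COL4A1 relative to COL4A2 and COL5A3 relative to COL5A1 are higher, and COL6A1 relative to COL6A2 overlaps.

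The transmembrane collagens were low. COL13A1, found at cell adhesion sites and at the junction of nerve and muscle, had 38.5, 46.5 and 46.8 CPM at day 85, against 68.3, 74.3 and 29.9 CPM at day 45. Day 45 replicate 3 lay below the whole of day 85, and the log2 fold change was -0.39 (SE 0.33, edgeR adjusted p = 0.468). COL23A1 had 4.10, 1.33 and 2.51 CPM at day 85, against 4.35, 4.26 and 11.2 CPM at day 45. The ages were separate by a narrow margin, and the log2 fold change of -1.33 (SE 0.55) did not pass (edgeR adjusted p = 0.166). Without day 45 replicate 3 it was -0.71 (adjusted p = 0.382).

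COL26A1, a small collagen first described in mouse testis and ovary, had 2.01, 7.26 and 4.55 CPM at day 85, against 8.27, 9.38 and 12.4 CPM at day 45. No day 85 library reached the day 45 range, and replicate 2 came closest. The log2 fold change was -1.11 (SE 0.44, edgeR adjusted p = 0.153), and it passed at -1.60 without day 85 replicate 2 (adjusted p = 0.0274).

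COL28A1, a collagen known in mice mainly from peripheral nerve, was decided by a single library. It had 1.39, 65.7 and 1.71 CPM at day 85, against 3.06, 1.01 and 1.77 CPM at day 45. Day 85 replicate 2 held 986 counts, and the other 5 libraries held 14 to 50. Its level there was 42.3 times the mean of day 85 replicates 1 and 3, the highest such ratio among the 22 collagens compared, whose median was 1.40. The log2 fold change with all libraries was 3.54 (SE 1.60, edgeR adjusted p = 0.203), and it was -0.33 without that library (adjusted p = 0.664).

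Markers of several cell types were high in the same library, among them those of Schwann cells, the glia that wrap peripheral nerves. Of 6 markers 5 matched, and they summed to 169, 526 and 165 CPM at day 85, against 200.3, 121 and 157 CPM at day 45, and none was at 0. Each of the 5 was highest in day 85 replicate 2, and none of the 5 was called. Within day 45 COL28A1, with 50, 14 and 27 counts, had the order of the sum, with replicate 1 highest and replicate 2 lowest. Within day 85 the lowest library differed, being replicate 1 for COL28A1 and replicate 3 for the sum. Other markers were raised more in day 85 replicate 2. COL10A1, the collagen of hypertrophic cartilage, had 2.24, 466 and 3.17 CPM at day 85, against 234, 334 and 93.7 CPM at day 45, and COL2A1, the main cartilage collagen, had 28.8, 1074 and 50.6 CPM at day 85, against 4999, 4107 and 3733 CPM at day 45. The osteoclast sum was highest there too. Also highest there was the osteoblast sum, with 7065, 19104 and 6382 CPM at day 85, against 5220, 7664 and 2955 CPM at day 45. The same held for macrophage markers, with 358, 798 and 275 CPM at day 85, against 79.4, 152 and 121.5 CPM at day 45. Red cell markers summed to 1257, 2444 and 588 CPM at day 85, against 810, 725.5 and 430.5 CPM at day 45. The part of any of these cell types in the value of COL28A1 was not tested.

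Proteins that work with collagens were followed in 5 lists, to be read against the 3.90% of all tested genes called higher and the 2.66% called lower. Of 15 tested basement membrane partners, HSPG2, which encodes perlecan, rose 2.04-fold and the laminin chain LAMC1 rose 2.22-fold (edgeR adjusted p = 0.0398 and 0.0440), AGRN, which encodes agrin, fell 1.75-fold (adjusted p = 0.0465), and the median was 0.65 on the log2 scale, with 13 above 0. HSPG2 had 1020.5, 1410 and 1398 CPM at day 85, against 598, 524 and 754 CPM at day 45. Unlike COL4A1 it was lowest, not highest, in replicate 1 of day 85. These 3 calls held without day 85 replicate 2 and were lost without each other library, with edgeR adjusted p from 0.0518 to 0.178.

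Enzymes and chaperones of collagen folding pointed the other way. Of 22 listed genes, 20 matched and were tested. All 20 lay below 0 on the log2 scale (median -0.70), 10 were lower at an unadjusted p under 0.05 and 3 were called. Over all tested genes 7240 of 15022 lay below 0, 13.3% were lower at an unadjusted p under 0.05 and 2.66% were called lower. COLGALT2, which adds galactose to collagen, fell to 17.6 ± 2.11 CPM at day 85, against 46.6 ± 3.14 CPM at day 45. Its log2 fold change was -1.41 (SE 0.14, edgeR adjusted p = 0.0160). SEC23A, of the coat that carries procollagen out of the endoplasmic reticulum, fell by 0.72 on the log2 scale and FKBP14, a collagen chaperone, fell by 0.80 (adjusted p = 0.0379 and 0.0472). SERPINH1, the collagen chaperone HSP47 and the most abundant of the list, had 673, 1368 and 1086 CPM at day 85, against 2050, 1917 and 1513 CPM at day 45, and did not pass (adjusted p = 0.118). Without day 85 replicate 2, edgeR called 12 of the 20 lower, against 1528 of all 15271 genes tested in that fit. Without each other library the adjusted p of COLGALT2 ran from 0.0440 to 0.106, and SEC23A and FKBP14 were not called. The chondrocyte sum given above was also lower in every day 85 library, and the part of cartilage content in this list was not tested.

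In each of the other 3 lists 1 member was called, in each case lower, where 2.66% of all tested genes were called lower. Of 12 tested genes of procollagen cleavage and cross-linking, PCOLCE2, an enhancer of C-propeptide removal, fell 2.19-fold (edgeR adjusted p = 0.0458), and the median over the list was -0.26 on the log2 scale. Of 25 fibril-associated proteins, the proteoglycan KERA was called (log2 fold change -2.27, adjusted p = 0.0405), and the median was -0.50. KERA, FMOD and THBS4 are also tendon and ligament markers, of which 5 of 6 matched and summed to 628.5, 1110.1 and 1455 CPM at day 85, against 1916, 3248 and 1938 CPM at day 45. All 5 had lower fitted levels (median -1.17 on the log2 scale), and the part of tendon content in this list was not tested. Of 11 collagen receptors, CSPG4, which binds collagen VI, was called (-1.03, adjusted p = 0.0491), and the median was 0.06. CSPG4 is also among the mural markers. Each of these calls held without day 85 replicate 2 and was lost without each of the others, with edgeR adjusted p from 0.0502 to 0.165.

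Another count model moved more collagens past the threshold. DESeq2 on all libraries called 5 collagens higher (18.5%), against 12.2% of the genes to which it gave an adjusted p, and 3 lower (11.1%), against 10.5%. The higher ones were COL5A3, COL4A1, COL4A2, COL7A1 and COL6A5, and the lower ones COL27A1, COL26A1 and COL23A1. It gave COL28A1 no adjusted p and COL4A4 one, so 27 collagens had a value here too.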

How the data were processed

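RNA of condyles from miniature pig embryos was sequenced, 3 libraries at day 85 and 3 at day 45. Per the labels' protocols, total RNA was depleted of ribosomal RNA and the second strand of the cDNA was degraded. Per the submitters' processing notes HISAT2 was used. Not given in the sources used here are the aligner's version, how and on which strand reads were counted, the genome build and the annotation. The authors deposited whole-number read counts per gene and FPKM values of the same libraries, per the file headers.

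The main test, on the deposited counts of 15022 genes, was the robust quasi-likelihood F test of edgeR 4.0.16 (R 4.3.3) with age as the factor, TMM scaling and the filterByExpr filter at a minimum count of 10. The SE is the log2 fold change divided by the square root of F. The procedure was tested on simulated data. Levels are TMM-normalised CPM of replicates 1, 2 and 3. The deposited FPKM served to compare genes, and a gene's factor in bases is its count over FPKM and library total.

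The collagens, their classes and all lists were chosen with earlier results of these data known. Some Schwann cell markers are not reported here and were left out of that list's sum. Collagens given with a value per library were the called ones, the 2 most abundant of each class, those with an unadjusted p under 0.05 and at least a 2-fold change, and chains of shared molecules; the rest were added after their values were seen. Of each partner list, up to 4 called members are named, or the 2 most abundant; SERPINH1 was added after its values were seen. No library was a duplicate of another: over genes with at least 10 counts in a pair, chi-square over its degrees of freedom came to at least 20.2. Alternatives were 3 other scalings, 2 other filters, DESeq2 1.42.0, limma-voom and limma-trend (limma 3.58.1; on log2 of FPKM plus 0.1 or 1), a replicate block, and leaving out each library.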

Additional observations from a re-analysis of the deposited data

How the results depend on the processing

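Under other scalings, filters and tools no log2 fold change of the tested collagens changed sign (25 of them under the CPM filter), and COL27A1 was called in every such fit. The count of collagens called higher was 1 in the reported fit, with RLE scaling, with either other filter and with limma-voom. It was 0 with upper-quartile scaling, with total-count scaling and with limma-trend on FPKM (pseudocounts of 0.1 and 1). DESeq2 called 5 higher and 3 lower. Leaving out each library gave 0 to 4 higher and 0 to 2 lower, and all 5 fits without a library other than day 85 replicate 2 gave 0. Both ages carry replicate numbers 1 to 3, and the labels give no pairing. The correlation of same-numbered libraries' deviations was 0.035, 0.302 and 0.103, and 4 of 6 libraries were closest to their own number. This check cannot decide whether same-numbered libraries were paired or shared a batch. With the replicate block 1 collagen was called higher, COL6A5 (edgeR adjusted p = 0.0375), and 0 lower, while COL5A3 (0.0746) and COL27A1 (0.0511) were not called; over all genes it called 465 higher and 217 lower.

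The log2 fold change of 9 collagens that were not called changed sign when 1 library was left out. The ranges over the 6 such fits were -0.45 to 0.055 for COL5A1, -0.36 to 1.27 for COL4A6, -0.40 to 0.29 for COL16A1, -0.56 to 0.040 for COL14A1, -0.72 to 0.065 for COL19A1, -0.22 to 0.22 for COL6A1, -0.38 to 0.066 for COL6A3, -0.049 to 1.44 for COL8A1 and -0.33 to 4.09 for COL28A1. Over all genes, total-count scaling called 437 higher and 598 lower, against 586 and 400 with TMM. Low counts limit COL4A4, COL4A5, COL4A6, COL6A5 and COL19A1.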
